A study of Homo sapiens with 10 samples.

Results

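The 10 genes of membrane lipid remodelling examined were the lipins LPIN1, LPIN2 and LPIN3, and the lysophospholipid acyltransferases LPCAT1, LPCAT2, LPCAT3, LPCAT4, MBOAT7, LPGAT1 and LCLAT1. They were found by gene name in the count table, where all 10 had a row among 32738 genes. HepG2 is an established human hepatoma cell line. The cells were grown for 17 h either in plain growth medium (control) or in the same medium with 2 µg/ml tunicamycin, which blocks N-linked glycosylation and so causes ER stress. No solvent is named for the control medium. Each condition had 5 libraries, made on separate days from total RNA by 3′ end sequencing (QuantSeq), in which a transcript gives about one fragment irrespective of its length. Replicates of a condition are therefore repeat experiments on a single cell line, and p-values describe the spread between these experiments only. Values listed for a condition stand in the order of replicates 1 to 5. The question addressed is how ER stress alters the genes that form and remodel glycerolipids.

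Lipins are phosphatidate phosphatases: they remove the phosphate of phosphatidic acid and yield diacylglycerol, from which triglycerides, phosphatidylcholine and phosphatidylethanolamine are made. The lysophospholipid acyltransferases work in the Lands cycle, in which phospholipase A enzymes take a fatty acid off a phospholipid and an acyltransferase puts another in its place, so that the acyl chains of a membrane can be changed without new synthesis. LPCAT1, LPCAT2, LPCAT4, LPGAT1 and LCLAT1 belong to the AGPAT-type acyltransferases, while LPCAT3 and MBOAT7 are membrane-bound O-acyltransferases (MBOAT). In the liver this remodelling is known for its effect on membrane fluidity and on lipoprotein and triglyceride output.

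Total counts lay between 4242538 and 4888292 in control libraries and between 2234682 and 5029864 in tunicamycin libraries, the lowest being tunicamycin replicate 5. No pair of libraries had identical counts, and Pearson's r of log2 normalized counts, taken over genes and therefore a description only, was 0.956 to 0.972 within the control group and 0.946 to 0.967 within the tunicamycin group. All 8 hepatocyte markers examined were detected, with a summed level of 64912 to 83561 normalized counts in control and 51663 to 58205 in tunicamycin libraries, and 5 of the 8 were called lower with tunicamycin. Of 9 matched markers of other cell types, PTPRC and DCN had no counts in any library; the summed levels in control and tunicamycin libraries were 16.6 to 37.6 and 10.1 to 27.5 for leukocyte, 0 to 1.02 and 0 to 24.7 for endothelial, and 109 to 164 and 54.9 to 176 for fibroblast markers. Most of the leukocyte level was CD68 (means of 27.8 in control and 15.6 in tunicamycin libraries). Most of the fibroblast level was ACTA2 (138 and 106). The endothelial level in tunicamycin libraries was from CDH5 (mean 4.95, SD 11.1). Mitochondrial transcripts made up 22.7% to 25.2% of control and 18.3% to 28.8% of tunicamycin counts. The part of these differences in the members' results was not tested. The ER stress genes HSPA5, DDIT3, HERPUD1 and DNAJB9 were all called higher, with log2 fold changes of 2.97, 1.42, 2.78 and 3.76. Normalized counts are counts divided by the library size scaled by edgeR's TMM method and multiplied by the mean scaled size of 4367372. They are therefore levels relative to the other genes of the same library. A change in the number of cells or in the total RNA per cell cannot be seen in them.

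The promoters of LPCAT1 and LPCAT4 are shown because these genes had the largest decrease and the largest increase among the 10, and that of MBOAT7 because it was the other member whose conditions did not overlap. Each sequence is from RefSeq (GRCh38.p14), reads 5′ to 3′ on the gene's own strand, and runs from 250 bases before to 50 bases after the annotated start. Capitals mark matches to the motifs listed after the sequences. The windows are chr5:1523911-1524210 (minus strand) for LPCAT1, chr15:34367147-34367446 (minus strand) for LPCAT4 and chr19:54189531-54189830 (minus strand) for MBOAT7.
LPCAT1: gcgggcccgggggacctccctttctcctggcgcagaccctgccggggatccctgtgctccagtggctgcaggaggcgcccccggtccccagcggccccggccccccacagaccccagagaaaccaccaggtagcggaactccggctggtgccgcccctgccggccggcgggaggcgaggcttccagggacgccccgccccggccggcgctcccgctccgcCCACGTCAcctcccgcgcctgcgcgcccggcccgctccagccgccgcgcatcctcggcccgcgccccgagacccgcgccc
LPCAT4: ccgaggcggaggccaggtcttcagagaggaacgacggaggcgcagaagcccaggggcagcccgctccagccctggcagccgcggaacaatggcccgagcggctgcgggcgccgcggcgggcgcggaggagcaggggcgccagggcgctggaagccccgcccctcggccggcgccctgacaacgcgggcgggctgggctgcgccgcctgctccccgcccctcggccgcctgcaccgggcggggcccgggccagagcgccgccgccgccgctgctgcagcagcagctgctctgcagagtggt
MBOAT7: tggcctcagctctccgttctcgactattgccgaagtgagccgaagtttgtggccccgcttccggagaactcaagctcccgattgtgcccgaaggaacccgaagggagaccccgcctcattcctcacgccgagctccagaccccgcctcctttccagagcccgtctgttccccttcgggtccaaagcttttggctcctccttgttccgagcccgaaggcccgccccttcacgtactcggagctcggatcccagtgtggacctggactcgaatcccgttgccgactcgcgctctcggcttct

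RefSeq windows were found for 8 of the 10 genes, 13 windows in all; LPCAT2 and LPIN3 had no entry in the table. Both strands were searched for AP-1 (TGACTCA or TGAGTCA), the CARE motif of ATF4 (TGATGNAA), the UPRE core of the unfolded protein response (TGACGTGG), the ERSE motif (CCAAT and CCACG with any 9 bases between), the sterol element SRE (TCACNCCAC), the E-box CACGTG and the CCAAT box, which is also the first part of ERSE. The UPRE core was found in LPCAT1 alone among the 13 windows, as its reverse complement CCACGTCA starting 30 bases before the start, and 0.729% of 35116 promoter windows hold it. The windows of LPCAT4 and MBOAT7 held none of these motifs. LPIN2 held the E-box in 1 of its 2 windows (7.26% of all windows), and LPCAT3 and LCLAT1 held CCAAT boxes (34.6%). AP-1, CARE, ERSE and SRE, present in 4.95%, 3.62%, 0.0769% and 1.13% of all windows, were found in none of the 13. Sequence outside the windows was not searched. The AP-1 sites that the study reports for GPAT3 lie further downstream of the start than such a window reaches. The 3 printed windows differed in base composition, with a GC content of 80.0% for LPCAT1, 79.3% for LPCAT4 and 62.7% for MBOAT7, against a median of 58.7% over all windows.

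Of the 10 genes, 9 passed the filter on low counts and were tested with edgeR's quasi-likelihood test on the whole table of 12733 genes. At an adjusted p under 0.05, LPCAT4 and LPGAT1 were higher with tunicamycin and LPCAT1, MBOAT7 and LPIN3 were lower, while LPIN1, LPIN2, LPCAT3 and LCLAT1 were not called. The background to these 5 of 9 is that 34.2% of all tested genes were called, 17.6% as higher and 16.6% as lower. LPCAT4 passed the filter through the group where it was high, so these counts describe the tested members and are no test of them. The median log2 fold change of the 9 genes was -0.19, and that of all tested genes was -0.003. The 2 conditions did not overlap for 2 of the 9 genes, LPCAT1 and MBOAT7, compared with 23.5% of all tested genes.

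**Figure D1:**
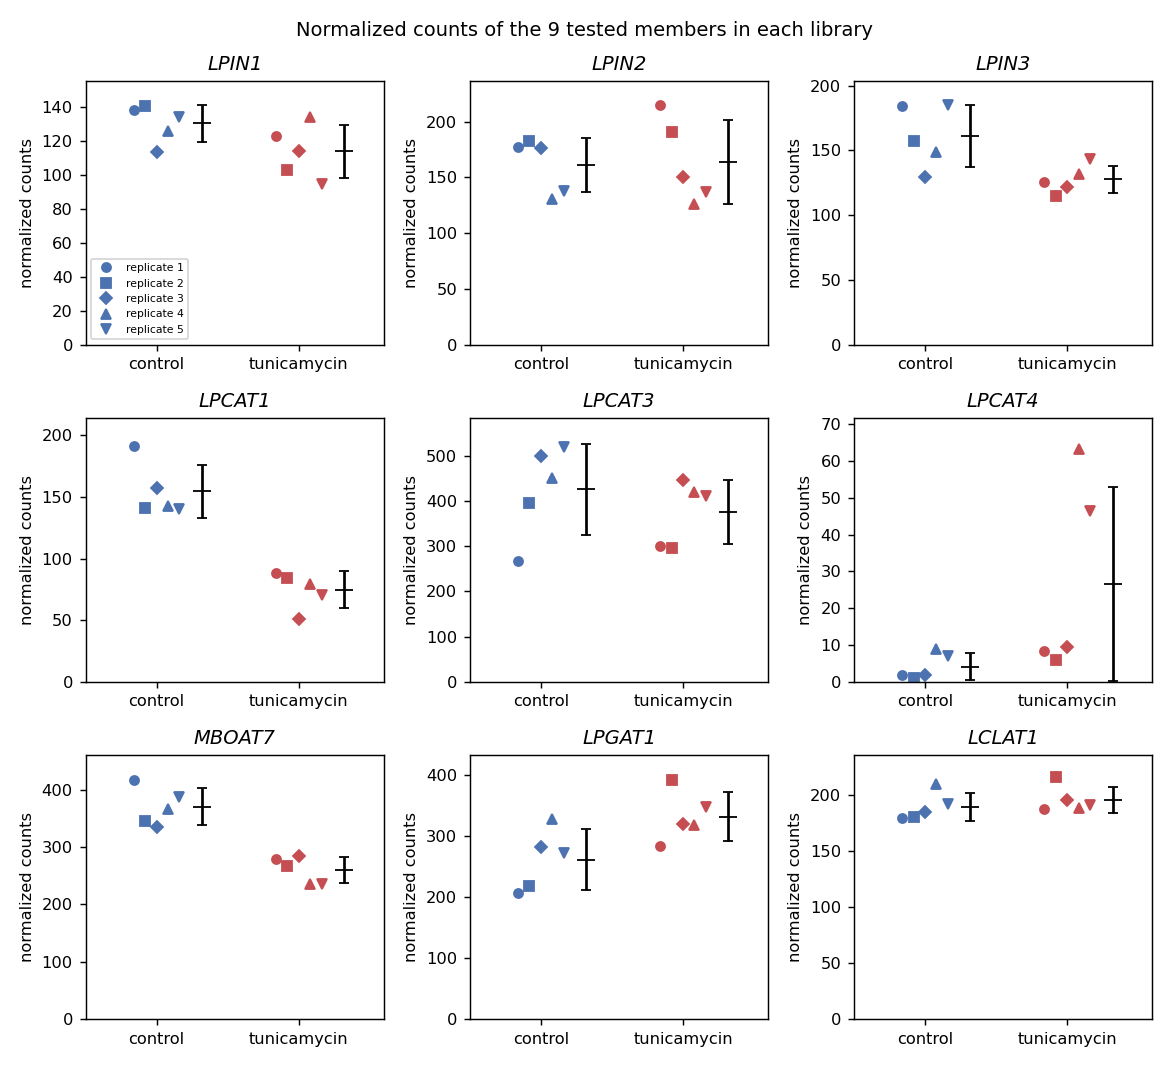
Normalized counts (vertical axes, each from 0) of the 9 tested genes in the 5 control and 5 tunicamycin libraries, with a marker shape per replicate and the mean ± SD in black. LPCAT1 and MBOAT7 show no overlap between conditions, and LPCAT4 is highest in replicates 4 and 5 of both conditions.

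**Figure D2:**
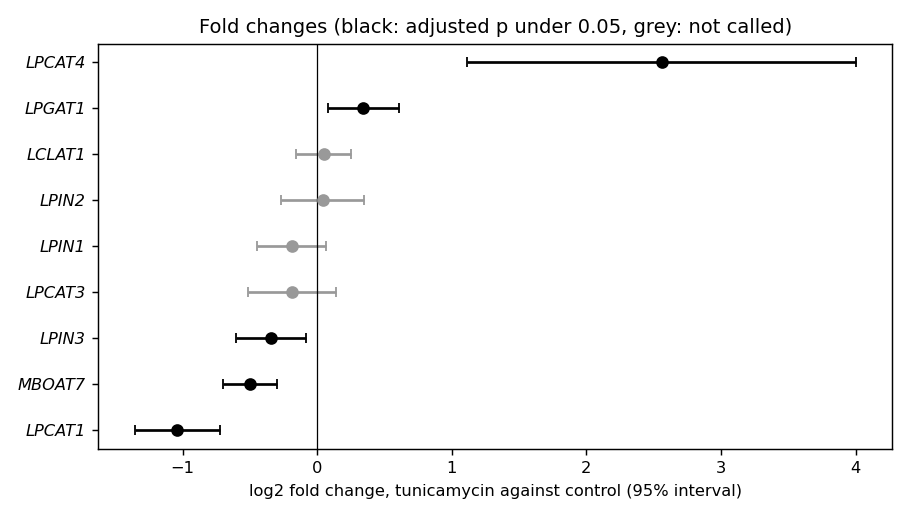
Log2 fold change with tunicamycin (horizontal axis) of the 9 tested genes with 95% intervals from edgeR's quasi-likelihood fit, in black where the adjusted p was under 0.05 and in grey otherwise. LPCAT4 has the widest interval, from 1.11 to 4.01, and LPCAT1 lies lowest, at -1.04.

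The most abundant of the 10 genes in control cells was LPCAT3, at 426 ± 101 normalized counts (SD, n = 5), followed by MBOAT7 at 370 ± 32.6, LPGAT1 at 261 ± 49.9 and LCLAT1 at 189 ± 12.3. Of these neighbours, only MBOAT7 and LPGAT1 had ranges that did not overlap. LPIN2, LPIN3 and LPCAT1 came next, at 161 ± 24.6, 161 ± 23.8 and 154 ± 21.7, and their ranges overlapped one another. LPIN1, at 131 ± 11.0, overlapped those 3 in range as well, whereas LPCAT4, at 4.09 ± 3.68, lay far below these 8 and LPCAT2 had no counts. With tunicamycin LPCAT3 (375 ± 71.1) and LPGAT1 (332 ± 40.3) headed the order with overlapping ranges, MBOAT7 stood at 260 ± 23.2, and LPCAT1 at 74.9 ± 14.9 lay below every member except LPCAT4 and LPCAT2. These are levels per transcript end, compared without division by length because of the 3′ method.

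LPCAT1 transfers mainly saturated acyl groups to lysophosphatidylcholine and is known for the dipalmitoyl phosphatidylcholine of lung surfactant. The gene (ENSG00000153395) spans 1456480 to 1523962 on the minus strand of chromosome 5 (GRCh38), and its exons are free of other annotated exons. Control libraries had 191, 141, 157, 142 and 140 normalized counts, and tunicamycin libraries had 88.7, 84.3, 51.0, 79.7 and 70.6. Each tunicamycin library was below every control library, and the lowest was tunicamycin replicate 3. The level fell to 48.6% of control, which is -1.04 on the log2 scale (standard error 0.15, adjusted p = 2.80e-05). Within replicate pairs the log2 ratio (with 0.5 added to each count) ranged from -1.62 to -0.74, and 4.58% of all tested genes had a lower log2 fold change.

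LPCAT4, also an AGPAT-type enzyme, acylates lysophosphatidylcholine and lysophosphatidylethanolamine. The gene (ENSG00000176454) spans 34358633 to 34367196 on the minus strand of chromosome 15 (GRCh38) and is likewise free of other exons. The raw counts were 2, 1, 2, 10 and 7 in control libraries and 10, 6, 10, 46 and 23 after tunicamycin. In normalized counts these were 1.72, 0.892, 1.75, 8.96 and 7.12, and 8.45, 5.95, 9.45, 63.2 and 46.4. Replicates 4 and 5 were the highest in each condition, and the conditions overlapped: control replicates 4 and 5 lay above tunicamycin replicate 2, and control replicate 4 also above tunicamycin replicate 1. The gene reached the filter's level in 5 tunicamycin but only 2 control libraries, so it entered the test by way of its higher group, and its call is no independent support for a change.

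Within pairs matched by replicate number, the log2 ratio of LPCAT4 was 2.04, 2.27, 2.18, 2.76 and 2.64, with 0.5 added to each count. The SD was 0.31, and every pair was higher with tunicamycin. For the pairs whose control library held 1 or 2 counts, the fold from the counts as they stand was 4.91 (95% counting interval 1.05 to 46.1), 6.68 (0.810 to 307) and 5.40 (1.15 to 50.7). For pairs 4 and 5 it was 7.05 (3.51 to 15.7) and 6.52 (2.71 to 18.0). These intervals are exact (Clopper-Pearson on the share of counts) and cover counting error alone. Over all libraries the log2 fold change was 2.56 (standard error 0.69, adjusted p = 0.00721), and without any filter it was also 2.56 (adjusted p = 0.000559). Without tunicamycin replicate 4 it was 1.87 (adjusted p = 0.0403), and with the default minimums of the filter the gene was not tested. The log2 ratio of LPCAT4 to LPCAT1 counts was -5.50 ± 1.33 in control and -2.07 ± 1.55 in tunicamycin libraries (SD, n = 5 each), and was higher in 5 of 5 pairs. It sets the member with the largest increase over that with the largest decrease, so this difference of 3.43 is a description and no p is given for it.

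**Figure D3:**
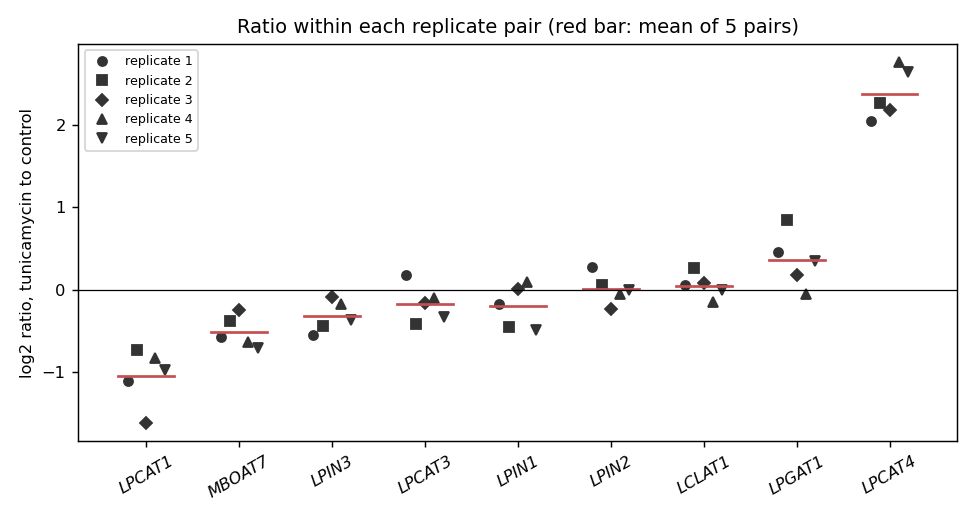
Log2 ratio of tunicamycin to control (vertical axis) within each of the 5 replicate pairs for the 9 tested genes, in order of their fitted fold change, with the mean as a red bar. All 5 ratios lie above 0 for LPCAT4, from 2.04 to 2.76, and below 0 for LPCAT1, MBOAT7 and LPIN3.

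LPCAT2 (ENSG00000087253), which forms platelet-activating factor in inflammatory cells, spans 55509072 to 55586666 on the plus strand of chromosome 16 (GRCh38). Not a single read was counted for it in the 10 libraries. Its exons overlap those of another gene on the same strand (ENSG00000261997), outside the last 500 bases of LPCAT2. The part of this overlap in the 0 counts was not tested. With 0 counts a level of up to 3 counts per library is possible, equal to 2.53 to 6.05 normalized counts, so a response could not be measured at this depth.

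LPCAT3 inserts polyunsaturated acyl groups into phosphatidylcholine and is known in the liver as a target of the sterol-sensing LXR receptors. Its locus (ENSG00000111684) is on chromosome 12 from 6976185 to 7018477 (GRCh38, minus strand). Normalized counts were 267, 395, 500, 451 and 519 in control libraries and 302, 296, 447, 420 and 412 after tunicamycin. The conditions overlapped, and the lowest control library was replicate 1. The log2 fold change was -0.19 (95% interval -0.52 to 0.14, adjusted p = 0.376), with 4 of 5 pairs lower. With a library left out it ranged from -0.32 to -0.10 and was never called. The value of -0.32 was that without control replicate 1 (adjusted p = 0.0544). Exons of EMG1 on the opposite strand overlap its last 500 bases, so the 2 genes cannot be separated there if counting ignored the strand; EMG1 itself had 301 to 468 normalized counts in control and 278 to 382 in tunicamycin libraries.

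MBOAT7 places arachidonic acid on lysophosphatidylinositol. The gene (ENSG00000125505) spans 54173412 to 54189882 on the minus strand of chromosome 19 (GRCh38), with no overlapping exons. Control libraries had 417, 346, 335, 366 and 386 normalized counts, and tunicamycin libraries had 279, 267, 283, 235 and 236. The highest tunicamycin library stayed below the lowest control library. The level fell to 70.6% of control, which is -0.50 on the log2 scale (standard error 0.10, adjusted p = 0.000469), and it was lower in 5 of 5 pairs. The log2 ratio of LPCAT3 to MBOAT7 counts was 0.17 ± 0.48 in control and 0.51 ± 0.35 in tunicamycin libraries, a difference of 0.34 that the exact permutation test did not separate from the spread (two-sided p = 0.246, adjusted p = 0.328 over 4 ratios), so a different response of the pair of MBOAT enzymes was not shown.

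LPGAT1 acylates lysophosphatidylglycerol and lysophosphatidylethanolamine in the ER, and LCLAT1 acts on lysocardiolipin and lysophosphatidylinositol. LPGAT1 (ENSG00000123684) spans 211743457 to 211830763 on the minus strand of chromosome 1 (GRCh38), and exons of its antisense gene LPGAT1-AS1 overlap its own outside the last 500 bases. Its normalized counts were 206, 218, 282, 328 and 272 in control libraries and 283, 391, 319, 317 and 347 after tunicamycin. The conditions overlapped, with control replicate 4 above 3 tunicamycin libraries. The log2 fold change was 0.34 (standard error 0.13, adjusted p = 0.0412), with 4 of 5 pairs higher. With scaling by library size only it was 0.26 (adjusted p = 0.1295), and the call was also lost without control replicate 1, 2 or 5 (adjusted p = 0.0924, 0.116 and 0.0574) or tunicamycin replicate 2, 3 or 5 (0.1125, 0.0625 and 0.0768).

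LCLAT1 (ENSG00000172954), spanning 30447226 to 30644225 on the plus strand of chromosome 2 (GRCh38), had 180, 180, 185, 210 and 192 normalized counts in control libraries and 188, 216, 196, 188 and 192 after tunicamycin. It was the steadiest of the 9 tested genes across libraries. The conditions overlapped and the log2 fold change was 0.05 (95% interval -0.15 to 0.25, adjusted p = 0.731). The log2 ratio of LPGAT1 to LCLAT1 counts was 0.44 ± 0.20 in control and 0.75 ± 0.11 in tunicamycin libraries (SD, n = 5 each), and was higher in 5 of 5 pairs. In the exact permutation test, which ignores the pairing by replicate number, this difference of 0.31 had a two-sided p of 0.0238 (adjusted p = 0.0476 over 4 ratios). The 4 ratios include that of LPCAT4 to LPCAT1, whose smaller p lowers this adjusted value. An exact test over the 5 pairs gave p = 0.0625, the smallest it allows (adjusted p = 0.125). After thinning to the smallest total the unpaired exact test gave an adjusted p of 0.127, and with a library left out 0.0318 to 0.0952, over 0.05 in 9 of 10 cases, so a different response of LPGAT1 and LCLAT1 was not established.

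The 3 lipins were of similar abundance. LPIN1 (ENSG00000134324), which besides its enzyme activity acts in the nucleus as a coactivator of PPARα with PGC-1α, spans 11677595 to 11827409 on the plus strand of chromosome 2 (GRCh38), with opposite-strand exons outside its last 500 bases. It had 139, 141, 114, 126.3 and 134 normalized counts in control libraries and 123, 103, 114, 135 and 94.8 after tunicamycin. The conditions overlapped, with 3 of 5 pairs lower. The log2 fold change was -0.19 (95% interval -0.45 to 0.07, adjusted p = 0.250).

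LPIN2 (ENSG00000101577), the major lipin of liver, spans 2885296 to 3013144 on the minus strand of chromosome 18 (GRCh38), with opposite-strand exons outside its last 500 bases. It had 177, 183, 177, 131 and 138 normalized counts in control libraries and 215, 191, 150, 126.4 and 137 after tunicamycin. Replicates 4 and 5 were the lowest in each condition, the reverse of LPCAT4. The log2 fold change was 0.04 (95% interval -0.27 to 0.35, adjusted p = 0.861), and its sign turned with library size only and without any of 4 single libraries.

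LPIN3 (ENSG00000132793), a phosphatidate phosphatase like the other two, spans 41340821 to 41360582 on the plus strand of chromosome 20 (GRCh38). Control libraries had 184, 157, 129, 149 and 185 normalized counts, and tunicamycin libraries had 125.8, 115, 122, 132 and 143. The conditions overlapped, but each pair was lower with tunicamycin. The log2 fold change was -0.34 (standard error 0.12, adjusted p = 0.0364). This call was lost without a filter (adjusted p = 0.0507), without control replicate 1, 2 or 5 (0.0817, 0.0601 and 0.1003) and without tunicamycin replicate 1, 2, 3 or 4 (0.0550, 0.0983, 0.0794 and 0.0518). Exons of EMILIN3 on the opposite strand overlap its last 500 bases, so the 2 genes cannot be separated there if counting ignored the strand. EMILIN3 had 5 counts in all libraries together, which does not show how LPIN3 reads in that stretch were counted. The log2 ratio of LPIN3 to LPIN1 counts was 0.29 ± 0.14 in control and 0.17 ± 0.25 in tunicamycin libraries, and the difference of -0.12 did not pass the exact permutation test (two-sided p = 0.349, adjusted p = 0.349 over 4 ratios), so the call of LPIN3 and the missing call of LPIN1 do not show that they responded differently.

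Summed over the 3 lipins, the level was 453 ± 39.7 normalized counts in control and 405 ± 34.8 in tunicamycin libraries (SD, n = 5 each), with overlapping ranges of 406 to 500 and 375 to 464. LPIN1, LPIN2 and LPIN3 made up 28.9% ± 1.58, 35.6% ± 4.70 and 35.5% ± 3.79 of that sum in control and 28.2% ± 3.83, 40.1% ± 6.27 and 31.7% ± 4.44 in tunicamycin libraries. Summed over the 7 acyltransferases, the level was 1405 ± 125 in control and 1264 ± 67.8 in tunicamycin libraries. The share of LPCAT1 in this sum was 11.1% ± 2.38 in control and 5.97% ± 1.43 in tunicamycin libraries and that of MBOAT7 was 26.6% ± 3.91 and 20.7% ± 2.64, whereas LPGAT1 made up 18.5% ± 2.16 and 26.2% ± 2.84. LPCAT3 had shares of 30.1% ± 5.35 and 29.6% ± 4.50, and LPCAT4 made up 0.278% ± 0.237 and 2.07% ± 2.00. These sums and shares are descriptions of the members, given without a test.

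Among the other acyltransferases of glycerolipid synthesis, 9 of 13 listed genes were tested. Of these, 6 were lower and 1 higher, with a median log2 fold change of -0.40. Over all tested genes, 16.6% were called lower and 17.6% higher. AGPAT2 (-1.26, adjusted p = 2.67e-08) and AGPAT3 (-0.87, adjusted p = 1.15e-06), which make phosphatidic acid from lysophosphatidic acid, fell most. GPAT3, listed as AGPAT9, was the gene that rose (1.71, adjusted p = 1.18e-07). The 2 other MBOAT lysophospholipid acyltransferases listed, MBOAT1 and MBOAT2, had 0 counts in all libraries.

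The phosphatidate branch around the lipins holds the enzymes that make or use phosphatidic acid and diacylglycerol. Of its 20 genes 19 were tested, with 2 higher, 5 lower and a median log2 fold change of -0.009. The share called over all tested genes was 34.2%, with 17.6% higher and 16.6% lower. DGAT2, the last step of triglyceride synthesis, fell by 2.04 on the log2 scale (adjusted p = 3.62e-12), and CDS1, which turns phosphatidic acid into CDP-diacylglycerol, had a log2 fold change of -0.88 (adjusted p = 3.85e-05). The other 3 that fell, named after their values were seen, were PPAP2B (-0.59), a phosphatase that also acts on phosphatidic acid, DGAT1 (-0.58) and CEPT1 (-0.52), which makes phosphatidylcholine and phosphatidylethanolamine. AGK, a mitochondrial acylglycerol kinase (0.71, adjusted p = 0.00852), and CHPT1, which makes phosphatidylcholine from diacylglycerol (0.60, adjusted p = 0.00147), rose.

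Of 13 genes listed for the control of lipins, all were tested, with 1 higher, 3 lower and a median log2 fold change of 0.06. The background share called was 17.6% higher and 16.6% lower. CTDNEP1, the phosphatase that activates lipins at the nuclear envelope, had 1455 ± 132 normalized counts in control and 1496 ± 84.2 in tunicamycin libraries (SD, n = 5 each, log2 fold change 0.04, adjusted p = 0.749). It was named after its values were seen. SREBF2, the sterol-regulated transcription factor SREBP-2, had a log2 fold change of -0.65 (adjusted p = 6.95e-05), and TOR1AIP2, an activator of torsin ATPases, of -0.44 (adjusted p = 0.00352).

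A list of phospholipase and lysophospholipase genes was set up for the deacylating side of the Lands cycle. Whether each listed protein has this activity was not examined. Of 30 listed, 21 were tested, of which 2 were higher and 7 lower, with a median log2 fold change of -0.32. Among all tested genes 17.6% were called higher and 16.6% lower. PLA2G2A, a secreted phospholipase (-1.46, adjusted p = 8.86e-06), and PLA2G12B (-1.20, adjusted p = 0.000170) fell most. PLA2G12A, another secreted type (1.00, adjusted p = 1.10e-05), and LYPLA1, a lysophospholipase and protein thioesterase (0.78, adjusted p = 6.58e-05), rose.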

How the data were processed

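RNA of HepG2 cells was measured in 5 control and 5 tunicamycin libraries (QuantSeq 3′ mRNA-Seq). The authors deposited raw counts per gene, made on hg19 with transcripts of Ensembl release 87 by version 1.4.2 of nf-core's RNA-Seq workflow. The workflow is stated to have run with its defaults, and the aligner, counting program and strand setting this implies are not spelled out in the sources used here. Each of the table's 10 columns was matched to its library by name.

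Genes were filtered with edgeR's filterByExpr (minimum count 2, minimum total 10, as the study's methods state), scaled by TMM and tested by edgeR's quasi-likelihood method (version 4.0.16 under R 4.3.3) with condition as the only term. Benjamini-Hochberg adjustment ran over all 12733 tested genes, and an adjusted p under 0.05 is a call. The standard error is the absolute log2 fold change divided by the square root of F. Ratios of 2 genes and of paired libraries used a pseudocount of 0.5. Ratios between conditions used an unpaired exact permutation test (scipy 1.17.1). A paired exact test over replicate numbers was added after seeing the data. The scripts were tested on simulated data.

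The series states that the replicates were separate days. A replicate number was therefore taken to pair a control with a tunicamycin library. Deviations from the group mean correlated between the members of a pair at 0.318, 0.0173, 0.0423, 0.124 and 0.0934 for replicates 1 to 5 over 10736 genes. At depths of 2234682 to 5029864 counts, low genes such as LPCAT4 are imprecise, and counting intervals cover counting error alone.

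Alternatives were DESeq2 1.42.0, DESeq2's size factors, library size only, no filter, default filter minimums (10 and 15), the replicate block, thinning to the smallest library and each library left out in turn. The members, ratios and lists were chosen with earlier results of these data known. Genes named are the 10 members, the 4 ER stress genes, the 2 called genes per list with the largest change in each direction, and the 5 genes most like LPCAT4; CTDNEP1, PPAP2B, DGAT1, CEPT1, MBOAT1 and MBOAT2 were named after their values were seen. The values of 2 genes called in the list for lipin control are not reported here. Of 18 cell type markers, 17 were matched by symbol. Gene positions are from GENCODE on GRCh38, matched by Ensembl identifier, and no hg19 coordinate is given.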

Additional observations from a re-analysis of the deposited data

Results flagged for a closer look

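Normalized counts of the members and of the genes named from the lists were searched for a single library standing well apart from its own condition. This was so in 4 of 46 sets of 5 libraries, where chance gives about 2.3. The values were 216 normalized counts for LCLAT1 in tunicamycin replicate 2 (187.5 to 195.5 in the other 4), 78.3 for CDS1 in tunicamycin replicate 4 (123 to 141), 218 for SREBF2 in tunicamycin replicate 5 (169 to 177) and 280.3 for LYPLA1 in tunicamycin replicate 4 (209 to 228). LCLAT1 was the only member among them, and its call did not change in any fit that was run.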

How the results depend on the processing

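LPCAT1, MBOAT7 and LPCAT4 kept their direction and their call under every alternative in which they were tested. Their log2 fold changes were -1.12 to -0.92, -0.58 to -0.45 and 1.87 to 3.09. LPCAT4 entered the filtered fits by way of its higher group, so its kept call is no added support for a change. The number of members called higher was 1 instead of 2 with library size only, where LPGAT1 lost its call, and with the default filter minimums, which removed LPCAT4. With a library left out it ranged from 1 to 2, and the number called lower from 2 to 3. With the replicate block 2 members were called higher and 3 lower, and no call of a member changed. Library size only turned the sign of LPIN2 (-0.034) and LCLAT1 (-0.032), neither of which was called, and with a library left out LPIN2 ranged from -0.081 to 0.12; the cause was not tested. Differences in ratios were judged by p adjusted over the 4 ratios. That of LPGAT1 to LCLAT1 was 0.31 in the paired exact test over replicate pairs (replicate block, chosen after seeing the data) and 0.32 after thinning, and lost its call in both; with a library left out it ranged from 0.25 to 0.36 and lost its call in 9 of 10 cases. That of LPCAT4 to LPCAT1 is a description and is given without a p. It was 3.43 over the replicate pairs and 3.09 after thinning, and ranged from 2.997 to 3.84 with a library left out. The smallest unadjusted p is 0.0625 for 5 pairs and 0.0159 for 5 libraries against 4. For LPGAT1 to LCLAT1 the paired p was at this limit, so that lost call shows no weaker difference. Its 9 lost calls with a library left out had unadjusted p of 0.0317 to 0.0476 in the exact permutation test, above the limit. The differences of LPIN3 to LPIN1 and of LPCAT3 to MBOAT7 stayed without a call, at -0.23 to -0.062 and 0.14 to 0.46. The depth of tunicamycin replicate 5, 2234682 counts, and the low counts of LPCAT4 limit what can be said of single pairs.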

Other observations

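The 5 genes whose log2 levels followed LPCAT4 most closely over the 10 libraries, among 11634 tested genes whose mean normalized count was 5 or more, were ATXN1L (Pearson r = 0.964), NPAS2 (0.952), CLDN4 (0.949), PRPSAP2 (0.945) and PEX5 (0.942). These correlations are descriptions over libraries that share a condition or a replicate number. PEX5, the receptor that imports proteins into peroxisomes, had 8.61, 8.03, 14.0, 20.6 and 16.3 normalized counts in control libraries and 27.9, 35.7, 37.8, 94.8 and 68.6 after tunicamycin. As with LPCAT4, replicates 4 and 5 were the highest in each condition. The 5 genes were picked for following LPCAT4, so a shared pattern of libraries came with that choice and is no support for it. In CLDN4, a tight junction protein, replicates 4 and 5 had 277 and 266 normalized counts in control and 313 and 297 in tunicamycin libraries, against 219 to 223 and 243 to 269 in replicates 1 to 3. Sequencing depth differed in the same tunicamycin libraries, replicates 4 and 5 having 3567316 and 2234682 counts, while control replicates 4 and 5 had 4687103 and 4242538; its part in these values was not tested.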
